A study of Ovis aries with 40 samples.

Results

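Genes of airway defence and neutrophil recruitment were followed through gestation in the lungs of wild-type (WT) sheep and of sheep without a working CFTR gene, the gene mutated in cystic fibrosis (CF). The list holds 8 genes, CXCL8, S100A8, S100A9, S100A12, LTF, CHI3L1, KNG1 and WFDC1, and its members were found by their exact symbols in the count tables, which have 24478 genes. 7 of the 8 have a row, and S100A12 was not analysed here. CXCL8, CHI3L1, KNG1 and WFDC1 were selected on these libraries, by the rise from day 100 to day 120 in CF distal lung, so that contrast is given for them as values without a test. The other members were also chosen by earlier results of the same 40 libraries, so no p-value below is independent evidence for a gene of the list.

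RNA from proximal and distal lung was sequenced with 2 libraries for each genotype, region and time point, 20 conditions in all, from day 65 through days 80, 100 and 120 to term (day 147). All animals were of American Romney stock. WT animals came from natural matings, and those at term were born naturally. CF animals were CFTR-/- fetuses and newborns made by somatic cell nuclear transfer from male fetal fibroblasts of 1 gene-targeted line, so genotype and cloning cannot be told apart, and the CF replicates share 1 cell line. Both regions came from the same animals, and the 2 WT day 100 replicates carry 1 animal label. Another label is shared by WT day 65 replicate 2 and CF day 100 replicate 2, in both regions. With 2 libraries a condition, p-values measure the spread between these samples, which may be partly technical.

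CXCL8 encodes the chemokine interleukin 8, which draws neutrophils out of the blood through the receptors CXCR1 and CXCR2. S100A8 and S100A9 form calprotectin, the main protein of the neutrophil's cytosol, and LTF encodes lactoferrin, an iron-binding protein of neutrophil granules that gland and surface cells of the airways also secrete. CHI3L1 is a chitinase-like protein without enzyme activity made by macrophages, neutrophils and epithelium, KNG1 is kininogen, from which bradykinin is cut, and WFDC1 is a secreted protein with a WAP domain, a fold shared with protease inhibitors of the airway surface.

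In the Oar_v4.0 assembly that the count tables use, S100A9 lies on chr1:102182799-102185548 (+ strand) and S100A8 on chr1:102217575-102218676 (- strand). KNG1 is on chr1:198549607-198575210 (- strand), CXCL8 on chr6:88387523-88391000 (+ strand) and CHI3L1 on chr12:352222-365563 (- strand). WFDC1 is on chr14:9998494-10027676 (+ strand) and LTF on chr19:52886946-52916930 (+ strand). An unnamed gene, LOC101103771, lies between the S100A9 and S100A8 genes at chr1:102196853-102198405 (- strand). It carries no gene symbol here, so it was not counted as a member. It was picked after its position and values were seen, and is followed beside the members.

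Levels are CPM, a gene's reads for every 1000000 counted in its library, with TMM scaling factors over the 40 libraries. From day 65 to day 120, 16 WT libraries held 24670355 to 43700012 counted reads each and 16 CF libraries 85773994 to 103139483. The 8 term libraries held 115937437 to 126749480, so a read was worth most CPM in fetal WT lung. Replicates were least alike in CF proximal lung at day 120, where the coefficient of biological variation between the 2 libraries was 0.760. They were most alike in WT distal lung at day 100, at 0.0737, where the animal label is the same. CFTR itself, the targeted gene, ran from 11 to 43.8 CPM in WT and 4.99 to 34.9 CPM in CF before term and from 9.58 to 14.8 and 3.65 to 5.14 CPM at term, with both CF libraries below both WT libraries in each region and at each age. A gene is said to have risen or fallen where edgeR's quasi-likelihood test gave an adjusted p (Benjamini-Hochberg over all genes tested) of 0.05 or less. In bulk tissue, fewer cells of a type and less RNA per cell cannot be told apart.

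**Figure D1:**
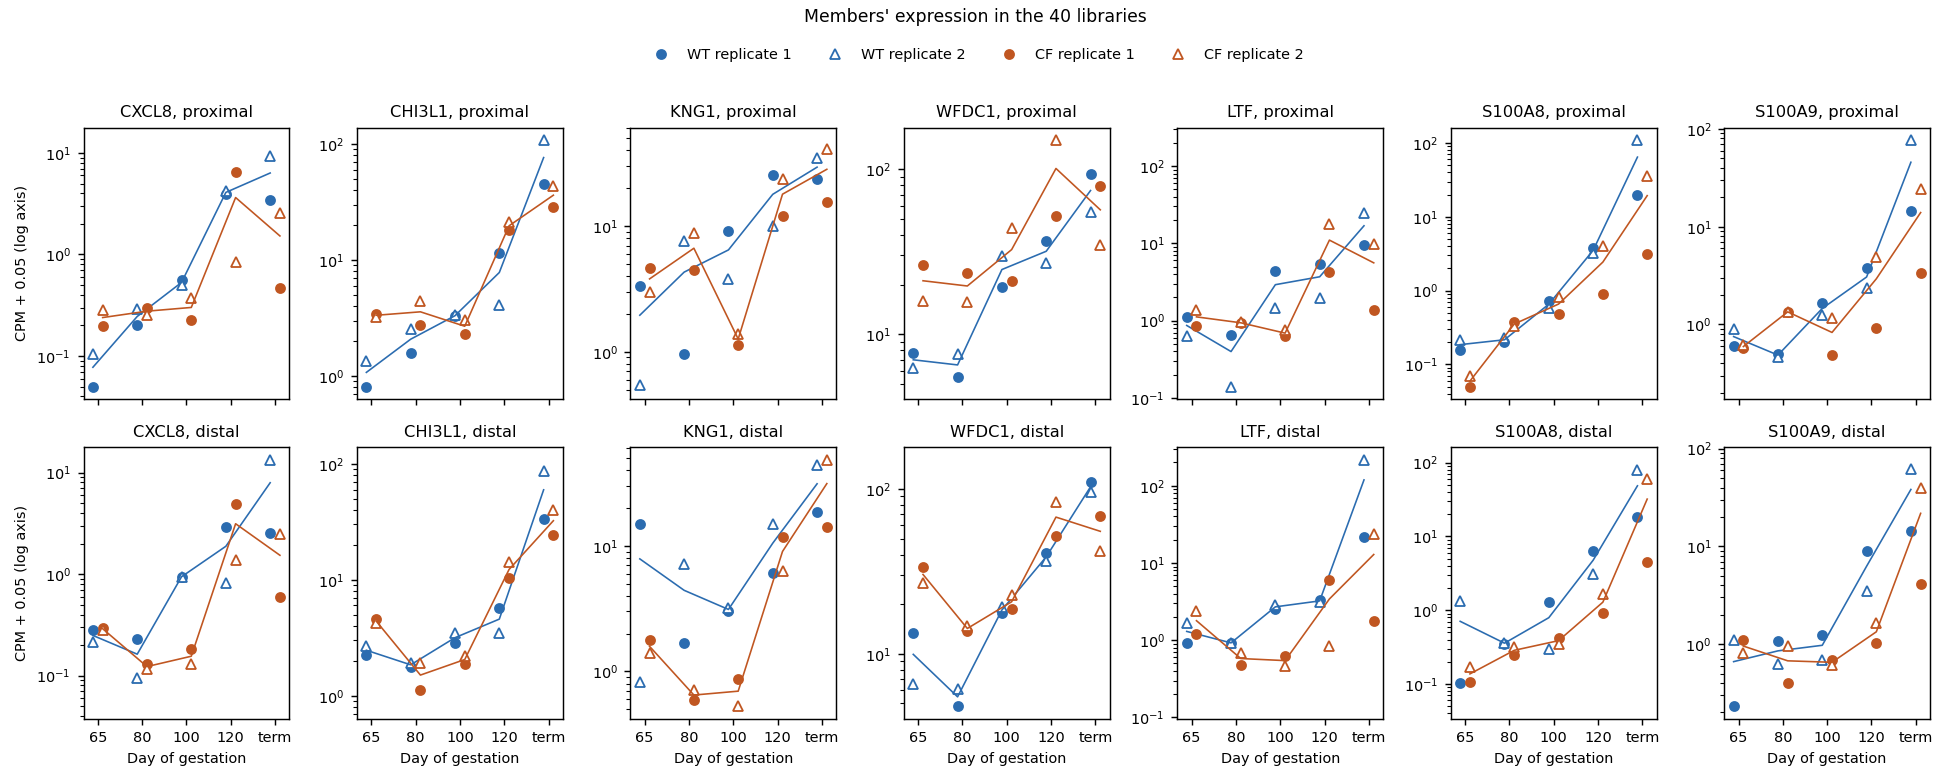
Levels of the 7 members (CPM + 0.05, log axis) against day of gestation in proximal (top) and distal lung (bottom). Circles are replicate 1 and open triangles replicate 2, lines join group means, and WT is blue and CF orange. By group means S100A8 and S100A9 are highest at term in every time course, and the 2 term replicates of a group lie far apart. WFDC1 in CF starts above WT at days 65 and 80 and ends below it at term by its group means.

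CXCL8 was close to the detection limit in early fetal lung. In WT proximal lung it had 0 reads in replicate 1 at day 65, which allows up to 0.0789 CPM, and 0.0549 CPM in replicate 2, then 0.151 and 0.239 CPM at day 80 and 0.51 and 0.45 CPM at day 100. It reached 3.94 and 4.14 CPM at day 120 and 3.36 and 9.24 CPM at term. WT distal lung had 0.233 and 0.165 CPM at day 65, 0.181 and 0.0447 at day 80, 0.892 and 0.893 at day 100, 2.89 and 0.774 at day 120 and 2.48 and 13.3 at term. The distal day 120 replicates thus lay on both sides of day 100, while in proximal lung both exceeded every earlier library.

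In CF proximal lung, CXCL8 ran from 0.148 to 0.324 CPM in the 6 libraries of days 65 to 100. It split at day 120 into 6.39 CPM in replicate 1 and 0.789 CPM in replicate 2, and stood at 0.417 and 2.53 CPM at term. CF distal lung gave 0.0655 to 0.245 CPM in the 6 early libraries, 4.85 and 1.33 CPM at day 120 and 0.548 and 2.42 CPM at term. The day 120 animal with the higher CXCL8 was the same in both regions. CXCL1, a chemokine with the same receptor CXCR2, was also higher in that animal, at 5.26 against 0.371 CPM in proximal and 2.99 against 0.689 CPM in distal lung. In CF distal lung the fitted log2 difference of CXCL8 between days 100 and 120 was 4.90 (SE 0.93), the value by which it was selected. In WT proximal lung the same interval gave a log2 fold change of 3.08 (SE 0.65, adjusted p = 0.0426 by edgeR). This call ended when any 1 of the 4 libraries compared was left out, with adjusted p from 0.129 without day 120 replicate 2 to 0.23 without day 100 replicate 2. With the 2 day 100 libraries, which share an animal label, summed to 1 it was 0.241, and with the bias-adjusted test 0.0663.

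At term CXCL8 in both CF replicates was below both WT replicates in proximal lung, and in distal lung CF replicate 2 (2.42 CPM) nearly met WT replicate 1 (2.48 CPM). The distal log2 fold change of CF against WT was -2.40 (SE 0.89, adjusted p = 0.0826 by edgeR) and did not pass. The change from day 120 to term did not pass in any time course either, and in WT distal lung it was 2.12 (SE 0.87, adjusted p = 0.104 by edgeR).

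The receptors of CXCL8 were followed as list genes. CXCR2 at term had 3.47 and 6.01 CPM in WT proximal, 3.61 and 5.26 in WT distal, 2.35 and 6.82 in CF proximal and 1.77 and 11.5 in CF distal lung. It had 0.236 to 1.11 CPM in the 8 libraries of day 120. CXCR2 rose by 2.85 (SE 0.59, adjusted p = 0.00837 by edgeR) on the log2 scale in WT proximal and 4.48 (SE 0.81, adjusted p = 0.00902) in CF distal lung, and it passed in WT distal lung too (adjusted p = 0.0396). CXCR1 rose by 5.19 (SE 1.38, adjusted p = 0.0241 by edgeR) in WT proximal, 3.26 (SE 0.94, adjusted p = 0.0336) in WT distal and 5.11 (SE 1.53, adjusted p = 0.0418) in CF distal lung. Of 12 listed genes for other chemokines and for inducers of neutrophil responses, such as CXCL1 and CSF3, 8 have a row. Between day 120 and term edgeR called 0 of 3 tested in WT proximal, 0 of 4 in WT distal and 0 of 7 in each CF region. An unadjusted p under 0.05 was reached by 2 in each CF region and 0 in WT, and DESeq2 called 1 in CF proximal, 2 in CF distal and 0 in WT lung. The shares of all genes called were 24.6% in WT proximal, 25.8% in WT distal, 0.356% in CF proximal and 23.0% in CF distal lung. CSF3, which drives neutrophil production, was higher in CF than in WT proximal lung over the 5 time points, by 2.58 on the log2 scale (SE 0.75, adjusted p = 0.0268 by edgeR). All of its values were at or below 1.53 CPM.

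S100A8 had at most 1.26 CPM in any library to day 100 and 3.05 to 109 CPM at term. WT proximal lung had 0.105 and 0.165 CPM at day 65, 0.151 and 0.18 at day 80, 0.681 and 0.526 at day 100, 3.7 and 3.2 at day 120 and 19.4 and 109 CPM at term. WT distal lung had 0.0519 and 1.26 CPM at day 65, 0.301 and 0.313 at day 80, 1.23 and 0.248 at day 100, 6.35 and 3.05 at day 120 and 18.1 and 78.7 CPM at term. Every WT library of day 120 exceeded every earlier one, and every term library exceeded day 120. The high day 65 distal library (replicate 2) also held more of the cathelicidin genes BAC5 and CATHL1B, antimicrobial peptides of neutrophil precursors, with 4.5 and 6.31 CPM against 0.104 CPM of each in replicate 1.

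In CF proximal lung S100A8 had 0 reads (up to 0.0277 CPM) and 0.0185 CPM at day 65, 0.324 and 0.279 at day 80, and 0.434 and 0.778 at day 100. It had 0.837 and 3.92 CPM at day 120 and 3.05 and 35.5 CPM at term. CF distal lung went from 0.0566 and 0.117 CPM at day 65 through 0.201 and 0.271, 0.374 and 0.299, and 0.862 and 1.61 at day 120 to 4.39 and 59.6 CPM at term. The term replicates differed 11.6-fold in proximal and 13.6-fold in distal CF lung, against 5.61-fold and 4.35-fold in WT, in each case with replicate 2 higher. In proximal CF lung term replicate 1 was below day 120 replicate 2, so those groups overlap.

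S100A9 followed a like course. At day 65 it had 0.552 and 0.851 CPM in WT proximal, 0.182 and 1.04 in WT distal, 0.525 and 0.563 in CF proximal and 1.05 and 0.763 in CF distal lung. At day 120 it had 3.7 and 2.32 CPM in WT proximal and 8.95 and 3.47 in WT distal, and 0.866 and 4.9 in CF proximal and 0.967 and 1.61 in CF distal lung. Term values were 14.5 and 76.9 CPM in WT proximal, 14.3 and 62.1 in WT distal, 3.29 and 24.5 in CF proximal and 4.11 and 39.4 in CF distal lung. The 16 libraries of days 80 and 100 ran from 0.351 to 1.62 CPM. WT proximal lung already went from 0.453 and 0.419 CPM at day 80 to 1.62 and 1.20 CPM at day 100. Every WT library of day 120 and every term library exceeded that range, while both CF distal libraries of day 120 lay within it. In CF proximal lung term replicate 1 was below day 120 replicate 2, so those groups overlap.

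Between day 120 and term S100A8 rose by 4.22 (SE 0.68, adjusted p = 0.00278 by edgeR) on the log2 scale in WT proximal, 3.37 (SE 1.05, adjusted p = 0.0453) in WT distal and 4.69 (SE 1.02, adjusted p = 0.0155) in CF distal lung. S100A9 rose by 3.93 (SE 0.69, adjusted p = 0.0041 by edgeR) in WT proximal and 4.07 (SE 0.93, adjusted p = 0.0179) in CF distal lung. Its 2.62 (SE 0.84, adjusted p = 0.0501) in WT distal lung just missed the limit. The proximal WT calls of both genes held when any 1 library was left out, though without term replicate 2 the log2 fold changes were 2.48 and 2.25. In CF distal lung both were lost without day 120 replicate 1 (adjusted p of 0.103 for S100A8 and 0.113 for S100A9) or without term replicate 2 (0.0884 and 0.111, with log2 fold changes of 1.84 and 1.68). That term replicate 2 library also differed from replicate 1 in other marker sums, whose part was not tested. The 10 alveolar type 2 markers summed to 8787 CPM in it against 35561 in replicate 1, the 8 epithelial markers to 3304 against 1551 and the liver markers to 150 against 432 CPM. In WT distal lung S100A8 was lost without any of day 120 replicate 1 (adjusted p = 0.141), day 120 replicate 2 (0.195) or term replicate 2 (0.308), and S100A9 was called without term replicate 1 (0.0109). The S100A8 call there was also lost with the 2 WT day 100 libraries summed to 1 (adjusted p = 0.0589).

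LOC101103771 rose with the pair, from 2.65 to 9.28 CPM in the WT and 1.1 to 7.48 CPM in the CF libraries of day 120 to 35.6 to 447 CPM in WT and 4.93 to 99.5 CPM in CF at term. Its log2 fold change to term was 6.27 (SE 1.01, adjusted p = 0.00274 by edgeR) in WT proximal, 4.61 (SE 0.94, adjusted p = 0.00921) in WT distal and 4.95 (SE 1.43, adjusted p = 0.0374) in CF distal lung. At term it had 2.48 to 5.81 times the CPM of S100A9 in WT and 1.31 to 2.53 times in CF libraries, and the genotypes overlapped only where CF distal replicate 2 (2.53) passed WT distal replicate 1 (2.48). The ratio of S100A8 to S100A9 at term was 1.26 to 1.42 in WT and 0.926 to 1.51 in CF libraries. At day 65 S100A8 was at 0 to 0.286 times S100A9 in 7 of the 8 libraries and at 1.21 in WT distal replicate 2. S100A8 counts of 0 to 12 reads stand behind those 7 ratios.

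**Figure D2:**
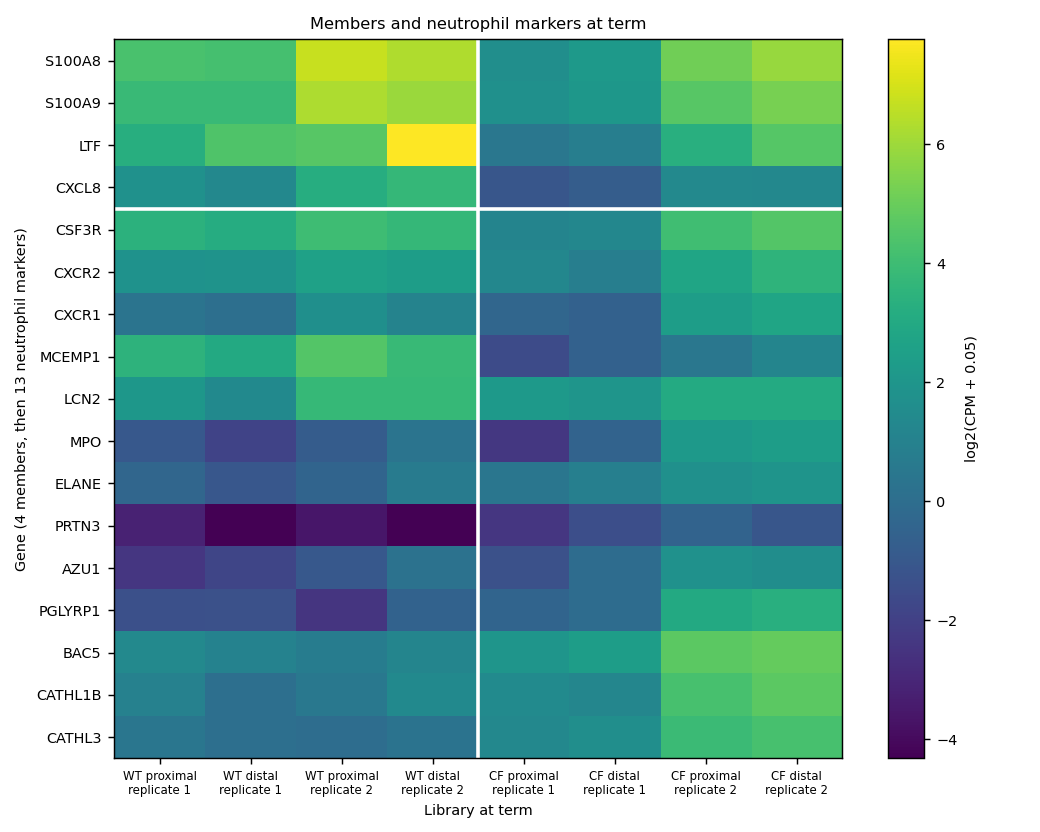
Heat map of log2(CPM + 0.05) in the 8 term libraries for 4 members (above the white line) and 13 neutrophil markers (below), with WT left and CF right of the vertical line. S100A8, S100A9 and the receptor genes CSF3R, CXCR1 and CXCR2 are higher in replicate 2 of each genotype. MPO, PGLYRP1 and the cathelicidins BAC5, CATHL1B and CATHL3 are high in CF replicate 2 (BAC5 26.2 and 29.8 CPM) and low in the 4 WT libraries (1.61 to 2.5 CPM).

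Some neutrophil markers moved with S100A8 and S100A9 and others went against them, and their part in these results was not tested. 17 of 27 listed markers have a row. From day 120 to term 6 of 15 tested rose and none fell in WT proximal lung, 5 of 16 rose and 2 fell in WT distal lung, and 7 of 16 rose and none fell in CF distal lung, where 24.6%, 25.8% and 23.0% of all genes were called. In CF proximal lung edgeR called 0 of 16, 5 had an unadjusted p under 0.05 and DESeq2 called 4, with 0.356% of all genes called. The median log2 fold changes were -0.16 in WT proximal, -0.30 in WT distal, 1.53 in CF proximal and 2.44 in CF distal lung. By group means 9 of the 17 markers were lower at term in WT proximal and 10 in WT distal lung, against 1 in each CF region. Their summed level was 24.5 to 61.2 CPM in WT and 14.4 to 40.7 CPM in CF libraries at day 120. At term it was 45.1 to 91.4 CPM in WT and 31.8 to 164 CPM in CF, with replicate 2 higher in each region and genotype. From day 120 to term the genes CSF3R, CXCR1 and CXCR2, which mature neutrophils carry, rose in WT proximal, WT distal and CF distal lung. CSF3R stood at 9 to 15.8 CPM in WT and 2.13 to 22.7 CPM in CF term libraries. In WT the group means of MPO, AZU1, PRTN3, ELANE, PGLYRP1, BAC5, CATHL1B and CATHL3, genes of granules that neutrophil precursors fill, were lower at term than at day 120 in both regions, against the direction of S100A8 and S100A9. BAC5 in WT distal lung had 13.5 and 5.14 CPM at day 120 and 1.97 and 2.21 CPM at term. The 2 that passed were PGLYRP1, which fell by 2.34 (-2.34, SE 0.72, adjusted p = 0.043 by edgeR) in WT distal lung, and PRTN3, which went there from 1.24 and 0.4 CPM at day 120 to 0 reads in both term libraries (adjusted p = 0.0247). The means of the same 8 genes were higher at term in CF distal lung, and ELANE and CATHL1B passed. MPO at term had 0.217 to 1.21 CPM in WT and 0.146 to 5.21 CPM in CF. In distal lung the change to term of PGLYRP1, a granule protein that binds bacterial cell walls, was 5.69 (SE 1.38, adjusted p = 0.0214 by edgeR) higher in CF than in WT on the log2 scale. MMP8, a collagenase of mature granules, was at or below 0.0825 CPM in all 40 libraries.

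TLR4 and AGER, receptors of calprotectin, were expressed from day 65. TLR4 rose from 11.5 and 9.06 CPM at day 120 to 25.3 and 30.1 CPM at term in WT proximal lung (log2 fold change 1.43, SE 0.23, adjusted p = 0.00279 by edgeR). In CF distal lung it rose from 8.36 and 8.06 CPM to 12.8 and 37.4 CPM (adjusted p = 0.0287). AGER, which is also the best-known marker of flat alveolar type 1 cells, rose by 1.98 (SE 0.27, adjusted p = 0.00139 by edgeR) in WT proximal and 2.31 (SE 0.34, adjusted p = 0.00261) in WT distal lung. At term AGER stood at 1917 to 2752 CPM in WT and 556 to 1455 CPM in CF. Other S100 genes also rose to term, 5 of 12 tested in WT proximal, 6 of 11 in WT distal and 5 of 11 in CF distal lung, where S100G fell, with median log2 fold changes of 1.12, 1.20 and 1.09. Over all genes tested, 24.6%, 25.8% and 23.0% were called in these 3 contrasts in either direction. S100A4 was among the largest of them, at 4.64 (SE 0.40, adjusted p = 0.000179 by edgeR) in WT proximal, 4.96 (SE 0.69, adjusted p = 0.00221) in WT distal and 2.77 (SE 0.59, adjusted p = 0.0151) in CF distal lung.

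LTF was highest in a single WT distal library at term. In WT distal lung it had 0.882 and 1.62 CPM at day 65, 0.874 and 0.872 at day 80, 2.5 and 2.8 at day 100 and 3.26 and 3.1 at day 120. At term it had 21.4 CPM in term replicate 1 and 217 CPM in replicate 2. The same animals had 9.36 and 24.3 CPM in proximal lung at term, after 1.05 and 0.576 at day 65, 0.604 and 0.0898 at day 80, 4.34 and 1.39 at day 100 and 5.35 and 1.93 at day 120. LTF rose to term by 5.22 (SE 0.93, adjusted p = 0.00558 by edgeR) on the log2 scale in WT distal lung, a call lost without day 120 replicate 1 (adjusted p = 0.0518). Without term replicate 2 its size was 2.68. In WT proximal lung the value was 2.21 (SE 0.81, adjusted p = 0.0777 by edgeR) and did not pass.

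In CF proximal lung LTF stayed between 0.572 and 1.34 CPM to day 100, then had 4.26 and 17.6 CPM at day 120 and 1.33 and 9.75 CPM at term. CF distal lung had 1.16 and 2.32 CPM at day 65, 0.409 to 0.627 CPM in the 4 libraries of days 80 and 100, 5.95 and 0.793 CPM at day 120 and 1.74 and 23.9 CPM at term. The CF term replicates thus differed 7.33-fold in proximal and 13.7-fold in distal lung, and replicate 2 of CF passed replicate 1 of WT in both regions. The distal log2 fold change of CF against WT at term, -3.20 (SE 1.11, adjusted p = 0.0647 by edgeR), did not pass.

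The wider airway defence list shows where LTF sits. Of 19 secreted defence genes tested, 9 rose in WT proximal and 11 in WT distal lung between day 120 and term with none lower, with median log2 fold changes of 2.01 and 3.30. In CF distal lung 5 of 19 rose with a median of 1.02, where 24.6%, 25.8% and 23.0% of all genes were called in the 3 contrasts. The club cell protein gene SCGB1A1 rose by 9.59 (SE 1.06, adjusted p = 0.000821 by edgeR) in WT proximal and 11.21 (SE 0.97, adjusted p = 0.000361) in WT distal lung. Lysozyme (LYZ) rose by 6.43 (SE 0.83, adjusted p = 0.00108) and 4.18 (SE 0.66, adjusted p = 0.00351). Airway secretory markers moved with LTF in some libraries and not in others, and their part was not tested. The 9 of 10 with a row summed to 1034 to 6008 CPM in WT term libraries, highest in the distal replicate 2 library that also had the highest LTF. They reached 4604 CPM in CF proximal day 120 replicate 2 against 199 CPM in replicate 1, where LTF was 17.6 and 4.26 CPM. At day 120 in CF distal lung, in contrast, they summed to 242 and 227 CPM beside 5.95 and 0.793 CPM of LTF. CF proximal lung at term had 1089 and 1340 CPM of them beside 1.33 and 9.75 CPM of LTF. In WT distal lung at day 65 the order was opposite, with 213 and 39.2 CPM of the markers and 0.882 and 1.62 CPM of LTF.

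CHI3L1 was at or below 4.52 CPM in every library to day 100 and highest at term, with CF above WT at day 120. WT proximal lung had 0.763 and 1.29 CPM at day 65, 1.55 and 2.51 at day 80, 3.23 and 3.3 at day 100, 11.5 and 4.09 at day 120 and 44.9 and 108 CPM at term. WT distal lung had 2.2 and 2.63, 1.72 and 1.88, 2.81 and 3.42, 5.61 and 3.45, and 33.2 and 86 CPM at the same ages. In both WT regions the term libraries lay far above all others. CF proximal lung had 3.41 and 3.18 CPM at day 65, 2.69 and 4.37 at day 80, 2.27 and 3.01 at day 100, 18 and 21.4 at day 120 and 28.7 and 43.7 CPM at term. CF distal lung had 4.52 and 4.21, 1.06 and 1.85, 1.84 and 2.16, 10.3 and 14.2, and 24.3 and 40.2 CPM. At day 120 both CF libraries exceeded both WT libraries in each region, and at term the same held in reverse in proximal lung, while in distal lung CF replicate 2 passed WT replicate 1. Alveolar type 2 markers were also higher in CF at day 120, and their part was not tested. They summed to 8776 and 21324 CPM in CF against 5751 and 7055 in WT proximal lung and to 7693 and 9665 against 3716 and 4652 CPM in distal lung.

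Between days 100 and 120 the log2 difference of CHI3L1 in CF distal lung was 2.63 (SE 0.36), the value by which it was selected. CF proximal lung gave 2.92 (SE 0.40, adjusted p = 0.0951 by edgeR), which was called only when the day 120 replicate 1 library was left out (adjusted p = 0.00865) or with DESeq2 (6.06e-10). From day 120 to term CHI3L1 rose by 3.30 (SE 0.56, adjusted p = 0.00341 by edgeR) in WT proximal, 3.72 (SE 0.46, adjusted p = 0.00137) in WT distal and 1.40 (SE 0.35, adjusted p = 0.0233) in CF distal lung. The WT calls held without any 1 library, and the CF distal call was lost without day 120 replicate 1 (adjusted p = 0.128) or term replicate 2 (0.118).

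The change of CHI3L1 to term was 2.31 smaller in CF than in WT on the log2 scale in distal lung (-2.31, SE 0.58, adjusted p = 0.0248 by edgeR). The test shares the CF day 120 libraries by which the gene was selected. It was lost without WT day 120 replicate 2 (adjusted p = 0.102) or WT term replicate 2 (0.0975, log2 difference -1.47). The proximal value was alike in size but did not pass (-2.42, SE 0.70, adjusted p = 0.103 by edgeR). At day 120 alone CHI3L1 in CF distal lung was higher by 1.45 (SE 0.42, adjusted p = 0.0632 by edgeR) and did not pass. It too uses the CF day 120 libraries of the selection. Over the 5 time points CHI3L1 in proximal lung was 0.49 higher in CF (SE 0.22, adjusted p = 0.14 by edgeR), and without WT day 120 replicate 1 it passed (adjusted p = 0.0401).

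Macrophage markers moved with CHI3L1 at term, and their part was not tested. The 12 of 13 with a row summed to 123 to 149 CPM in WT and 104 to 158 CPM in CF at day 120. At term they summed to 1049 to 2159 CPM in WT and 321 to 525 CPM in CF. Of 12 tested, 10 rose to term in each of WT proximal, WT distal and CF distal lung. Of 4 genes of the chitinase family tested, 1 rose to term in each WT region and 1 fell in CF distal lung, a share close to the 24.6%, 25.8% and 23.0% of all genes called in the 3 contrasts. CHI3L2 (row LOC101106229) rose to term by 5.67 (SE 1.07, adjusted p = 0.00565 by edgeR) in WT proximal and 6.58 (SE 1.50, adjusted p = 0.0168) in WT distal lung. Its distal change was 6.95 smaller in CF on the log2 scale (-6.95, SE 1.81, adjusted p = 0.0314). OVGP1, oviductin, fell by 1.68 (SE 0.37, adjusted p = 0.0157) in CF distal lung. Of the proteins that bind CHI3L1, TMEM219 rose in WT proximal (0.80, SE 0.14, adjusted p = 0.00449 by edgeR) and WT distal lung (0.93, SE 0.20, adjusted p = 0.0119). IL13RA2 fell by 2.04 (SE 0.44, adjusted p = 0.0104) in WT proximal lung.

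KNG1 varied widely between WT animals at days 65 and 80. WT proximal lung had 3.31 and 0.494 CPM at day 65, 0.906 and 7.6 at day 80, 9.07 and 3.75 at day 100, 25.7 and 10.1 at day 120 and 23.8 and 35 CPM at term. WT distal lung had 14.9 and 0.768 CPM at day 65, 1.63 and 7.11 at day 80, 2.95 and 3.17 at day 100, 6.02 and 14.9 at day 120 and 18.5 and 43.7 CPM at term. At days 65 and 80 the animal with more KNG1 was the same in both WT regions, and at day 120 it was not.

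CF proximal lung had 4.57 and 2.93 CPM of KNG1 at day 65, 4.45 and 8.79 at day 80, 1.09 and 1.34 at day 100, 11.9 and 23.9 at day 120 and 15.5 and 41 CPM at term. CF distal lung had 1.72 and 1.35, 0.542 and 0.655, 0.814 and 0.478, 11.7 and 6.21, and 14.1 and 48.3 CPM at the same ages. Every CF library of day 120 and term exceeded every earlier library of its region. The fitted log2 difference between days 100 and 120 in CF distal lung was 3.82 (SE 0.62), the value by which the gene was selected. From day 120 to term KNG1 rose in CF distal lung by 1.78 (SE 0.56, adjusted p = 0.0496 by edgeR). The call was lost with thinned counts (adjusted p = 0.0502) and without day 120 replicate 1 (0.0929), day 120 replicate 2 (0.156) or term replicate 2 (0.382, log2 fold change 0.64).

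Averaged over the 5 time points KNG1 was 1.53 lower in CF than in WT distal lung on the log2 scale (-1.53, SE 0.43, adjusted p = 0.0147 by edgeR), and in proximal lung it did not pass. The average includes the CF day 120 libraries by which KNG1 was selected. Distal group means in CF against WT were 1.53 against 7.81 CPM at day 65, 0.598 against 4.37 at day 80 and 0.646 against 3.06 at day 100. The genotypes were close later, at 8.96 against 10.4 CPM at day 120 and 31.2 against 31.1 CPM at term. The call rested on WT day 65 replicate 1, the library at 14.9 CPM: without it the value was -0.88 with an adjusted p of 0.063. Liver markers, since the liver is the main source of plasma kininogen, had a summed level of 85.6 to 671 CPM, highest in CF proximal day 120 replicate 2, whose KNG1 was 23.9 CPM. APOA1, an apolipoprotein, made up 76.9% to 98.4% of that sum, and the other 13 markers together had 2.22 to 31.8 CPM, so the sum follows APOA1 rather than the list. Their part in the KNG1 level was not tested. WT day 65 distal replicate 1 had 90.5 CPM of them beside its 14.9 CPM of KNG1. Airway secretory markers moved with KNG1 more closely, and their part was not tested either. In 19 of 20 conditions the replicate with more KNG1 had the higher sum of these markers, the exception being CF distal lung at day 80. WT distal lung at day 65 had 213 and 39.2 CPM of them beside 14.9 and 0.768 CPM of KNG1, so the library on which the averaged call rested was also the higher in these markers. CF distal lung had 21.3 to 56.5 CPM of them from day 65 to day 100.

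The kinin system changed in a few genes. KLKB1, prekallikrein, which cuts kininogen, was higher in CF over the 5 time points, by 2.38 (SE 0.35, adjusted p = 0.000455 by edgeR) in proximal and 3.21 (SE 0.38, adjusted p = 2.49e-05) in distal lung. BDKRB1, the bradykinin receptor that inflammation induces, was higher in CF proximal lung by 1.35 (SE 0.37, adjusted p = 0.0186 by edgeR), with 0.12 to 2.04 CPM in CF and 0.0549 to 1.15 CPM in WT proximal libraries. MME, a peptidase that breaks down bradykinin, was lower in CF, by 0.46 (-0.46, SE 0.13, adjusted p = 0.0243 by edgeR) in proximal and 0.54 (-0.54, SE 0.13, adjusted p = 0.00583) in distal lung. ACE, the other main bradykinin-degrading enzyme, rose to term by 2.09 (SE 0.21, adjusted p = 0.00035 by edgeR) in WT proximal, 1.45 (SE 0.31, adjusted p = 0.0114) in WT distal and 1.42 (SE 0.33, adjusted p = 0.0186) in CF distal lung. Of the system's genes tested, 3 of 7 in WT proximal, 3 of 9 in WT distal and 1 of 11 in CF distal lung rose to term and none fell, where 24.6%, 25.8% and 23.0% of all genes were called.

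WFDC1 was the member called most often between the genotypes. At day 65 it had 7.68 and 6.2 CPM in WT and 26.3 and 15.8 CPM in CF proximal lung, and 13.3 and 6.47 CPM in WT and 33.6 and 26.8 CPM in CF distal lung. At day 80 WT had 5.44 and 7.48 CPM in proximal and 4.76 and 6.11 in distal lung, and CF 23.4 and 15.6 CPM in proximal and 13.7 and 14.6 in distal lung. Both CF libraries were above both WT libraries in each region at both ages. At day 100 the groups met, with 19.3 and 29.9 CPM in WT and 20.8 and 44.2 in CF proximal lung and 17.6 and 19.1 in WT and 18.5 and 22.7 in CF distal lung. At day 120 CF was again above WT, with 36.4 and 27.1 against 52 and 150 CPM in proximal and 41 and 36.3 against 51.7 and 83.1 CPM in distal lung.

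At term the order turned in distal lung, with 110 and 95.6 CPM of WFDC1 in WT against 68.6 and 41.9 CPM in CF, while in proximal lung 93.1 and 55.4 CPM in WT overlapped with 78.8 and 34.6 CPM in CF. In distal lung CF was higher by 1.62 (SE 0.31, adjusted p = 0.00736 by edgeR) at day 65 and 1.38 (SE 0.31, adjusted p = 0.0203) at day 80 on the log2 scale. Its term value of -0.87 (SE 0.30, adjusted p = 0.0631 by edgeR) did not pass, except with DESeq2 (0.0297), the bias-adjusted test (0.0445), thinned counts (0.0476) or without CF term replicate 1 (0.0202). The day 65 call was lost without WT replicate 2 (adjusted p = 0.0873) or CF replicate 1 (0.0651), and the day 80 call without any 1 of its 4 libraries (0.107 to 0.191).

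Averaged over the 5 time points WFDC1 was higher in CF, by 0.97 (SE 0.24, adjusted p = 0.0107 by edgeR) in proximal and 0.62 (SE 0.13, adjusted p = 0.00303) in distal lung. These calls held when any 1 library was left out. The distal average includes the CF day 120 libraries by which WFDC1 was selected. Within WT it rose from day 80 to day 100 by 1.91 (SE 0.32, adjusted p = 0.0214 by edgeR) in proximal and 1.75 (SE 0.30, adjusted p = 0.0355) in distal lung. Both calls rested on counting the 2 day 100 libraries as separate animals: summed to 1, they gave adjusted p-values of 0.0738 and 0.209. Without day 100 replicate 2 the proximal value was 0.115, and in distal lung leaving out replicate 1 or 2 gave 0.21 or 0.252. It rose further to term in WT, by 1.22 (SE 0.30, adjusted p = 0.0185 by edgeR) in proximal and 1.39 (SE 0.28, adjusted p = 0.00913) in distal lung. The proximal call was lost without day 120 replicate 2 (adjusted p = 0.132) or term replicate 1 (0.112), and the distal one without day 120 replicate 1 (0.0512) or 2 (0.0589).

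In CF WFDC1 did not rise to term in either region by the group means, and the change to term was 1.68 smaller than in WT in distal lung (-1.68, SE 0.42, adjusted p = 0.0253 by edgeR). The test shares the CF day 120 libraries, where the rise of 1.72 (SE 0.30) from day 100 is the value by which WFDC1 was selected. It was lost without any of WT day 120 replicate 1 (adjusted p = 0.0742), WT day 120 replicate 2 (0.102), WT term replicate 1 (0.079), CF day 120 replicate 2 (0.0662) or CF term replicate 2 (0.0948). Smooth muscle markers moved with WFDC1 between the genotypes but not throughout, and their part was not tested. The 9 of 10 with a row summed to 472 to 1116 CPM in WT and 898 to 1962 CPM in CF before term. At term they summed to 836 to 1302 CPM in WT and 456 to 811 CPM in CF. In WT proximal lung, where WFDC1 rose to term, the sum was 1075 and 896 CPM at day 120 and 1252 and 836 CPM at term. CF proximal lung at day 120 had 1600 and 1735 CPM of them beside 52 and 150 CPM of WFDC1. Of the 9 tested, 6 were higher in CF over the 5 time points in each region, and 7 fell to term in CF distal lung, where 21.8% (averaged, proximal), 31.2% (averaged, distal) and 23.0% (to term) of all genes were called. Among the relatives of WFDC1, the serine protease inhibitor SLPI was 3.29 lower in CF than in WT distal lung at term (-3.29, SE 0.81, adjusted p = 0.0148 by edgeR). SPINT1, another protease inhibitor, rose to term in WT by 1.30 (SE 0.13, adjusted p = 0.000331) in proximal and 1.59 (SE 0.15, adjusted p = 0.000445) in distal lung. Of the family's genes tested, 3 of 9 rose to term in WT proximal and 1 of 9 in WT distal lung, and in CF distal lung 3 of 9 rose and 1 fell, where 24.6%, 25.8% and 23.0% of all genes were called.

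**Figure D3:**
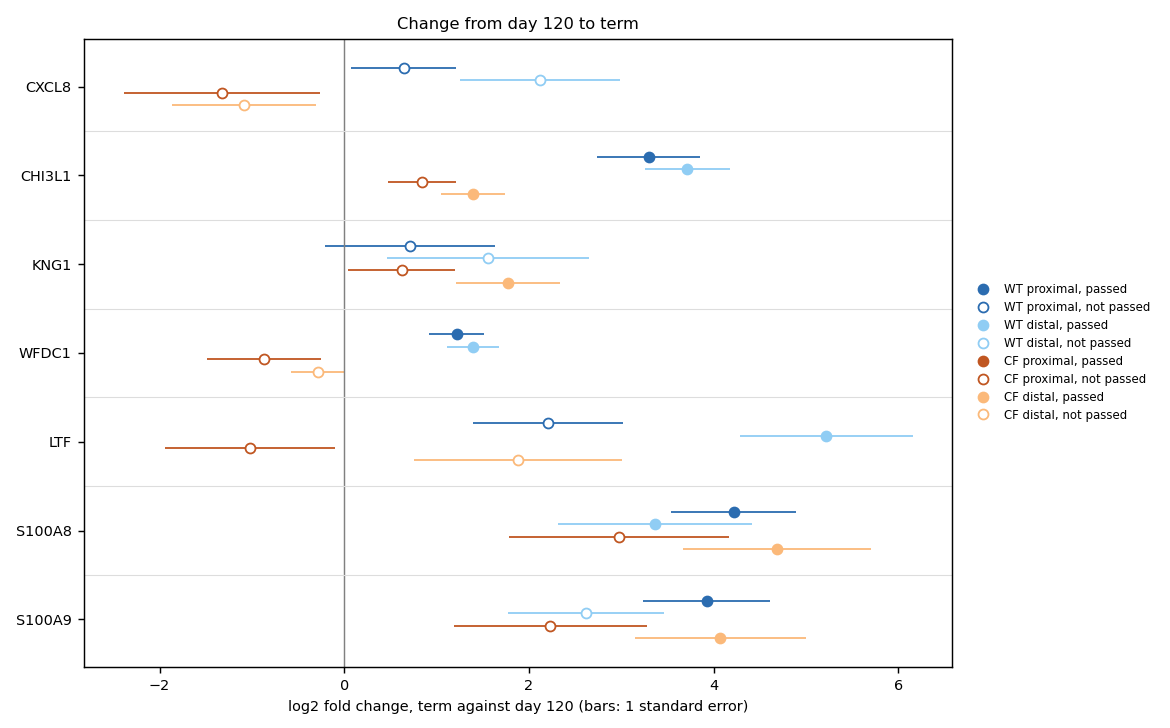
Log2 fold change of each member between day 120 and term in the 4 time courses (bars are 1 standard error, filled points passed an adjusted p of 0.05). CHI3L1, KNG1, S100A8 and S100A9 lie to the right of 0 in all 4, and WFDC1 and CXCL8 lie to the right in WT and to the left in CF, where neither passed. LTF lies to the left in CF proximal lung alone.

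Most of the members' 22 calls fell in the step to term. Between day 120 and term 4 of 7 members rose in WT proximal lung (CHI3L1, WFDC1, S100A8 and S100A9), where 24.6% of the 18186 genes tested were called. In WT distal lung 4 of 7 rose (CHI3L1, WFDC1, LTF and S100A8), against 25.8% of 18277 genes, and in CF distal lung 4 of 7 (CHI3L1, KNG1, S100A8 and S100A9), against 23.0% of 19508 genes. The median log2 fold changes of the 7 were 2.21, 2.62 and 1.78, while over all genes tested they were 0.06, 0.04 and -0.06. The members were chosen with results of these libraries known, so neither these counts nor these medians are independent evidence about the list. The CF distal contrast also starts from the day 120 libraries by which CXCL8, CHI3L1, KNG1 and WFDC1 were selected. In CF proximal lung 0 of 7 passed by edgeR and by DESeq2 and 1 (S100A8) had an unadjusted p under 0.05, where 0.356% of 19690 genes were called and the members' median was 0.62.

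The lists set beside the members had few or no calls in that CF proximal step. Of 12 macrophage markers tested edgeR called 0, while 10 had an unadjusted p under 0.05 and DESeq2 called 7, with a median log2 fold change of 1.82. For the secreted defence genes it called 0 of 19, with 5 under an unadjusted p of 0.05, 4 called by DESeq2 and a median of -0.47. Of the S100 genes 0 of 11 were called, 1 had an unadjusted p under 0.05 and DESeq2 called 1 (median 0.49). The kinin genes had 0 of 10 called, 2 under an unadjusted p of 0.05 and 1 by DESeq2 (median 0.16). The WAP family had 0 of 9 called and the chitinase family 0 of 4, each with 1 gene under an unadjusted p of 0.05 and 1 by DESeq2 (medians of -1.27 and -0.48). Of the 9 smooth muscle markers 2 fell.

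Before day 120 few members passed. From day 65 to day 80 the count was 0 of 7 by edgeR in each time course, with 1 gene under an unadjusted p of 0.05 in WT proximal, WT distal and CF proximal lung and 3 in CF distal lung. DESeq2 called 1 in CF distal lung and 0 elsewhere. The shares of all genes called were 0.0110% in WT proximal, 0.0164% in WT distal and 0% in both CF regions. From day 80 to day 100 WFDC1 passed in WT proximal lung, where 1.94% of genes were called, and in WT distal lung, where 1.00% were. In each WT region 2 members had an unadjusted p under 0.05 and DESeq2 called 2. In CF the count for that step was 0 of 7 by edgeR in both regions, with 0% of genes called, 1 gene under an unadjusted p of 0.05 in proximal and 0 in distal lung, and 1 and 0 by DESeq2.

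From day 100 to day 120 CXCL8 passed in WT proximal lung, where 2.67% of genes were called, and S100A8 came next with 2.52 (SE 0.73, adjusted p = 0.122 by edgeR). In WT distal lung 0 of 7 passed by edgeR, 3 had an unadjusted p under 0.05 and DESeq2 called 1, with 2.49% of genes called, and the closest was WFDC1 at 1.07 (SE 0.29, adjusted p = 0.0901 by edgeR). In CF proximal lung 0 of 7 passed by edgeR, 5 had an unadjusted p under 0.05 and DESeq2 called 4, with 0.0203% of genes called. That count became 4 when day 120 replicate 1 was left out. In CF distal lung, the contrast that chose the other 4 members, 0 of LTF, S100A8 and S100A9 passed by edgeR, 1 (LTF) had an unadjusted p under 0.05 and DESeq2 called 0, with 0.928% of genes called.

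**Figure D4:**
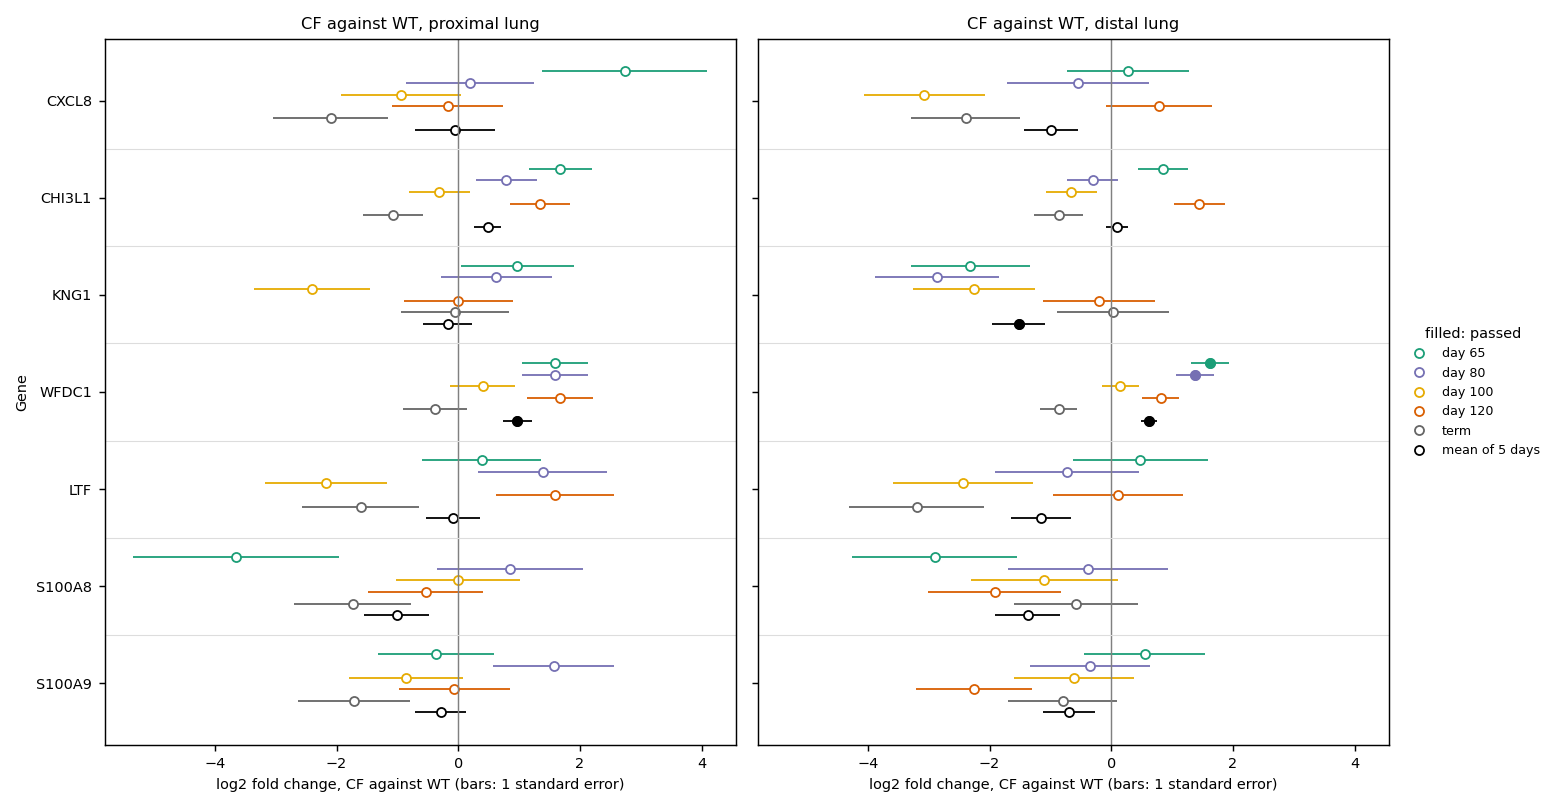
Log2 fold change of CF against WT for each member at each time point and averaged over the 5, in proximal (left) and distal lung (right), where bars are 1 standard error and filled points passed an adjusted p of 0.05. The filled points are WFDC1 averaged over the time points in both regions, WFDC1 at days 65 and 80 and KNG1 averaged in distal lung, and at term all 7 proximal points lie left of 0.

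Between the genotypes at a single time point, 0 of 7 members passed by edgeR in proximal lung. The counts under an unadjusted p of 0.05 were 3 at day 65, 1 at day 80, 2 at day 100, 2 at day 120 and 2 at term, and DESeq2 called 1 at day 120 and 0 at the others. The shares of all genes called were 0.167%, 0.0885%, 0.383%, 1.35% and 6.09% in that order. The closest was WFDC1 at day 120, at 1.67 (SE 0.54, adjusted p = 0.133 by edgeR), where CF replicate 2 was highest at 150 CPM. Averaged over the 5 time points 1 of 7 members (WFDC1) was higher in CF proximal lung, where 21.8% of genes were called. Of the differences in the change to term, 0 of 7 passed by edgeR in proximal lung, 3 had an unadjusted p under 0.05 and DESeq2 called 1, with 1.78% of genes called. The count became 2 without CF day 120 replicate 1.

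In distal lung WFDC1 was 1 of 7 members called at day 65, where 5.23% of genes were called, and 1 of 7 at day 80, where 5.92% were. At day 100, with 5.30% of genes called, 0 of 7 passed by edgeR, 2 had an unadjusted p under 0.05 and DESeq2 called 1, and CXCL8 stood at -3.07 (SE 0.99, adjusted p = 0.0878 by edgeR). At day 120, with 4.38% of genes called, 0 of 7 passed by edgeR, 3 had an unadjusted p under 0.05 and DESeq2 called 1. At term, with 15.2% of genes called, 0 of 7 passed by edgeR, 4 had an unadjusted p under 0.05 and DESeq2 called 3. Without WT term replicate 1 the calls over the 5 single time points went from 2 to 5.

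Averaged over the time points 2 of 7 members passed in distal lung, WFDC1 higher and KNG1 lower in CF, where 31.2% of genes were called. The average includes the CF day 120 libraries by which both were selected. S100A8 at -1.38 (SE 0.54, adjusted p = 0.0652 by edgeR), LTF at -1.15 (SE 0.50, adjusted p = 0.0914) and CXCL8 at -0.99 (SE 0.44, adjusted p = 0.1) did not pass. The count was 5 without WT term replicate 1, 4 without CF day 120 replicate 1 and 6 without CF term replicate 2. The change to term differed for 2 of 7 members in distal lung, CHI3L1 and WFDC1, both smaller in CF, where 9.31% of genes were called. Both tests use the CF day 120 libraries by which these genes were selected, so the count is not independent evidence.

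No member passed between proximal and distal lung of the same animals. Averaged over the 5 time points 0 of 7 passed by edgeR in WT, 0 had an unadjusted p under 0.05 and DESeq2 called 0, with 0.0160% of genes called. In CF 0 of 7 passed by edgeR, 2 had an unadjusted p under 0.05 and DESeq2 called 1, with 0.00497% of genes called.

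**Figure D5:**
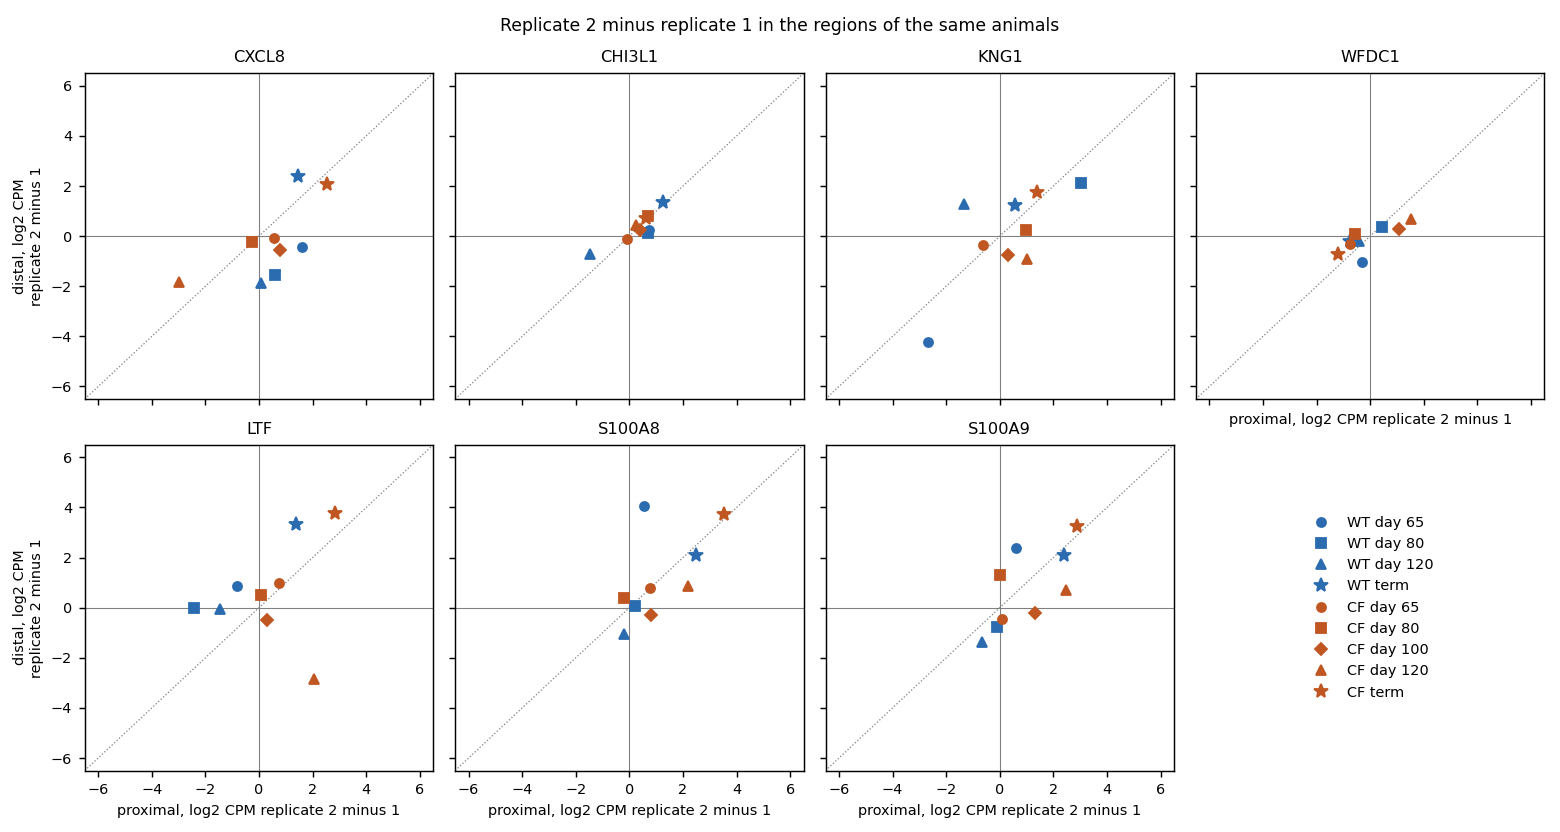
Log2 CPM of replicate 2 minus replicate 1 in distal lung (vertical axis) against proximal lung (horizontal axis) of the same animals, for 9 conditions without WT day 100, where symbols give the time point and the dotted line marks equal differences. CHI3L1 differs in the same direction in both regions in 9 of 9 conditions and CXCL8 in 4, and the stars (term) lie in the upper right for S100A8, S100A9 and LTF in both genotypes.

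Since both regions came from 1 animal, the direction in which replicate 2 differed from replicate 1 could be compared between them in 9 conditions. CHI3L1 had the same direction in both regions in 9 of 9, as 0.847% of 20770 genes did. WFDC1 had it in 8, which 5.55% of genes reached, S100A8 in 7 (21.0%), KNG1, LTF and S100A9 in 6 (46.8%) and CXCL8 in 4 (87.9%), where the median of all genes was 5.

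Relative to their exon length the members changed order through gestation. At day 65 WFDC1 had the most CPM per kilobase of exon in each region and genotype, at 4.29 to 18.7. At term in proximal WT lung S100A8 led with 124 CPM per kilobase, followed by S100A9 with 64.1, WFDC1 with 45.8, CHI3L1 with 33.5, KNG1 with 8.35, LTF with 7.91 and CXCL8 with 4.22. WT distal lung had LTF at 55.9 CPM per kilobase, behind S100A8 (93.6) and WFDC1 (63.5), and ahead of S100A9 (53.7). In CF distal lung S100A8 led at 61.8 CPM per kilobase, with WFDC1 at 34.1, S100A9 at 30.5 and CXCL8 last at 0.994. Neighbours in the term orders overlapped in their 2 libraries per gene in every region and genotype, except that CHI3L1 stood clear of KNG1, the next below it, in both WT regions and in CF proximal lung.

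Levels across the 40 libraries were also set against those of 15442 genes as a description, with shared animals, depth and age behind the points. S100A8 and S100A9 were most alike to each other among the members (Pearson r 0.94 on log2 CPM), and KNG1 and WFDC1 least (0.61). The genes closest to S100A8 were LOC101103771 (0.95), NFE2L2 (0.95) and S100A9, and to S100A9 they were S100A8, APOBR (0.94) and LOC101103771 (0.94). CHI3L1 was closest to SQRDL (0.96), FGR (0.94) and LGMN (0.94), and KNG1 to CCDC170 (0.94), UBXN10 (0.94) and ZNF385B (0.93). WFDC1 was closest to VSIG2 (0.91), to TAGLN (0.91), a smooth muscle gene, and to IRF9 (0.91). CXCL8 was closest to LOC101104661 (0.91) and LOC443475 (0.91), and LTF to S100A9 (0.84), FCGBP (0.84) and LOC101120093 (0.83).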

How the data were processed

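RNA of proximal and distal lung was sequenced as 40 libraries. The authors aligned the reads with STAR (2.6 in the submitters' processing notes) and counted them per gene with featureCounts (1.6.3), and deposited whole-number counts on Oar_v4.0. Of counts from 1 to 20, 69.2% to 85.8% were even, so mates were mostly counted separately. Members were matched by symbol, and members and gene lists were chosen with earlier results of these data known. Genes named were the members, from each list up to 3 genes a direction with the largest fold change among those that passed, any receptor, partner or relative of a member by value, and the 3 genes whose log2 CPM (prior count 2) was most alike to each member's. Further defining markers, and IL1RN, IL1B, IL6, TREM1 and LYZ, were named after their values were seen. Counts were analysed with edgeR 4.0.16 (limma 3.58.1, R 4.3.3): filterByExpr with a minimum count of 10 and a total of 15, TMM factors, and the quasi-likelihood test, 2-sided, with Benjamini-Hochberg adjustment over 18186 to 20344 genes. Time courses were fitted per genotype and region, and genotypes per region. Regions were compared with the animal's 2 libraries as separate samples. The fits were tested on simulated data.

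Alternatives were DESeq2 1.42.0, RLE factors, no low-count filter, the bias-adjusted test, thinned counts, the 2 WT day 100 libraries summed, the limits used in the study (adjusted p of 0.001 and log2 change of 0.58), a replicate block, and leaving out each library (84 refits). Replicate numbers do not pair samples across conditions: deviations correlated at -0.416 to 0.616 in proximal lung, 7 of 45 pairs over 0.1, and at -0.201 to 0.386 in distal lung, 16 of 45. The regions pair by animal label, with correlations from -0.0945 to 0.625. No replicate pair agreed within sampling noise. Limits at 0 reads (3 counts) cover counting error only. The time from birth to sampling at term was not analysed here. Values of 2 further genes are not reported here.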

Additional observations from a re-analysis of the deposited data

Results flagged for a closer look

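2 of the members had changes to term that differed between the genotypes in distal lung by the interaction test in edgeR: CHI3L1 with -2.31 and WFDC1 with -1.68 (CF minus WT, log2 scale), and both tests use the CF day 120 libraries on which these genes were selected. 2 genes in proximal lung had both replicates of 1 genotype move against both of the other, and the difference was not tested. Mean LTF went up by 2.52 CPM in WT and by -0.248 CPM in CF between days 80 and 100. Mean S100A9 changed by -0.266 CPM in WT and 0.751 CPM in CF between days 65 and 80, and by 0.973 CPM in WT and -0.517 CPM in CF between days 80 and 100. With 2 libraries in each condition, no group was large enough for a test of outlying values.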

How the results depend on the processing

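The 22 calls of members on single comparisons kept their direction under every alternative run, and all 22 stayed past the threshold under DESeq2, RLE factors and no filter on low counts, 21 under the bias-adjusted test and under thinned counts, 14 with the 2 WT day 100 libraries summed (4 did not), and 102 of 140 when a library was left out. 0 of 22 met the study's limits, which is a stricter threshold on the same fit. Under those limits the members' counts went to 0 for the change to term in WT proximal (from 4), WT distal (4) and CF distal lung (4), for days 100 to 120 in WT proximal lung (1), for CF against WT averaged in proximal (1) and distal lung (2), at single time points in distal lung (2) and for the distal difference in change to term (2). For the change to term DESeq2 gave 5 in WT proximal, 6 in WT distal, 0 in CF proximal and 4 in CF distal lung. For days 100 to 120 it gave 2 in WT proximal, 1 in WT distal and 4 in CF proximal lung. Between the genotypes in proximal lung it gave 1 at the single time points and 1 for the difference in change to term. In distal lung it gave 8 at the single time points and 4 averaged, and between regions 1 in CF. The bias-adjusted test gave 5 at the single distal time points, and 0 for days 100 to 120 in WT proximal lung, as did the summed WT day 100 libraries, and the cause was not tested. Leaving out 1 library, the change to term ranged from 3 to 4 in WT proximal, 1 to 6 in WT distal, 0 to 0 in CF proximal and 0 to 4 in CF distal lung, and days 100 to 120 from 0 to 0 in WT proximal, WT distal and CF distal lung and 0 to 4 in CF proximal lung. The genotype counts ranged from 0 to 1 at the single time points, 1 to 2 averaged and 0 to 2 for the difference in proximal lung, and 1 to 5, 2 to 6 and 0 to 2 in distal lung, and between regions they stayed at 0. With the replicate number as a block, which the deviations do not bear out as a pairing, counts to term were 5, 3, 0 and 3 in WT proximal, WT distal, CF proximal and CF distal lung, and 3 at the single time points and 3 averaged in distal lung. With that block S100A8 in WT distal (adjusted p = 0.0749 by edgeR) and KNG1 in CF distal lung (0.0623) were not called for the change to term, while LTF in WT proximal lung (0.0489) was, as were CHI3L1 at day 120 (0.0389) and averaged S100A8 (0.0462) between the genotypes in distal lung. The block by animal left both region counts at 0. Of the lists of most alike genes, 2 of 7 (S100A8 and S100A9) changed with a prior count of 0.5. Depth limits the early WT levels, where the 12 libraries to day 100 held 0 to 36 reads of CXCL8, 2 to 46 of S100A8, 7 to 57 of S100A9 and 3 to 153 of LTF.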

Other observations

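Some genes of inflammatory signalling, followed as a further list, rose to term. Of 19 tested, 10 rose in WT proximal and 10 in WT distal lung with none lower, and in CF distal lung 6 rose and 1, PTX3, fell, with median log2 fold changes of 0.79, 1.05 and 1.01, where 24.6%, 25.8% and 23.0% of all genes were called. For CF proximal lung edgeR called 0 of 19, 6 had an unadjusted p under 0.05 and DESeq2 called 3, with a median of 0.95 and 0.356% of all genes called. IL1B, the interleukin 1 beta gene, rose by 3.60 (SE 0.61, adjusted p = 0.00352 by edgeR) in WT proximal, 3.15 (SE 0.77, adjusted p = 0.0183) in WT distal and 2.76 (SE 0.75, adjusted p = 0.0307) in CF distal lung. IL1RN, which encodes its antagonist, rose in the same 3 time courses, by 3.93 (SE 0.62, adjusted p = 0.00261 by edgeR), 3.82 (SE 0.69, adjusted p = 0.00588) and 2.50 (SE 0.39, adjusted p = 0.00561). CSF2, a growth factor for alveolar macrophages, had 0 reads in both WT proximal libraries of day 120 and 0.967 and 2.5 CPM at term (adjusted p = 0.0118 by edgeR), and in WT distal lung it rose by 5.11 (SE 1.31, adjusted p = 0.0309). IL6 rose by 3.46 (SE 0.83, adjusted p = 0.021 by edgeR) in CF distal lung. Macrophage markers moved with these genes, and their part was not tested. In WT they summed to 123 to 149 CPM at day 120 and 1049 to 2159 CPM at term. In CF distal lung they summed to 104 and 138 CPM at day 120 and 518 and 525 CPM at term.

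Between the genotypes, TREM1, a receptor of neutrophils and macrophages that amplifies inflammation, was lower in CF over the 5 time points by 1.77 (-1.77, SE 0.37, adjusted p = 0.00431 by edgeR) in proximal and 1.70 (-1.70, SE 0.34, adjusted p = 0.00167) in distal lung. MCEMP1, a membrane protein of mast cells and other myeloid cells, was lower in CF at term, at 0.291 and 1.33 CPM against 11.2 and 23 CPM in WT proximal lung and at 0.633 and 2.21 CPM against 7.92 and 14.3 CPM in WT distal lung, with adjusted p-values by edgeR of 0.0239 and 0.0155.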
